A study of Mus musculus with 2 samples.

Results

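The genes described here are 42 genes of the stromal extracellular matrix, 39 of them non-collagen, non-laminin matrix glycoproteins, proteoglycans and matrix-modifying proteins and 3 of them surface markers of fibroblasts. They were chosen by name for what their products are known to do, with earlier results of these data known. All 42 were found among the 21628 entries of the expression table. RNA was sequenced from cells of the lingual epithelium of mice at postnatal day 0 (P0) that carry the Sox2GFP allele, in which green fluorescent protein (GFP) reports expression of *Sox2*. Dissociated cells of pooled pups were sorted by GFP signal into a GFP-high and a GFP-low population of about 100000 cells each, and 1 library was made from each population. Both populations come from the same pool of animals, and dead and autofluorescent cells were gated out. The gates follow GFP brightness alone, so that each population is a mixture of all cells with that level of GFP, and the epithelium was peeled and digested with enzymes before the sort. With 1 library per population, none of the differences below has a replicate check, and none was tested.

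The extracellular matrix of connective tissue is built from fibrillar collagens together with the proteins considered here. Small leucine-rich proteoglycans bind collagen fibrils and govern their assembly, large proteoglycans hold water and growth factors, fibrillins and elastin form elastic fibres, and matricellular glycoproteins such as periostin and tenascin C modulate adhesion. Fibroblasts of the lamina propria make most of these proteins, while nidogens and perlecan belong to the basement membrane on which epithelial cells rest, and keratinocytes can contribute to the latter.

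Values are FPKM (fragments counted per kilobase of a transcript and normalised for library depth), a measure per length, so that levels of different genes can be set side by side within a library. FPKM summed to 1071442 for the GFP-high and 999614 for the GFP-low library, and 10360 and 10444 genes reached 5 FPKM. Stated depth was about 75000000 reads per library, and the steps between low FPKM values gave an estimate of 27500000 mapped reads for GFP-high and 35500000 mapped reads for GFP-low. On that estimate the fewest reads behind any of the 42 genes were 26 in GFP-high cells, for *Acan*, and 112 in GFP-low cells, for *Fmod*. *Sox2* stood at 112 FPKM in GFP-high and 59.0 FPKM in GFP-low cells, a ratio of 1.90 in the direction of the sort.

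Most of the matrix genes were higher in GFP-low cells. A gene was called when it had at least 5 FPKM in the population where it was higher and differed at least 1.5-fold. By this rule 25 of the 42 genes (59.5%) were called higher in GFP-low cells, against 4.44% of all 21590 genes that could be compared. In GFP-high cells 1 of 42 (2.38%), *Fbln2*, was called, against 4.72% of all genes. The other 16 were not called. With at least 5 FPKM required in both libraries, 18 were called GFP-low and 1 GFP-high, against 2.93% and 3.60% of all genes. Because 7 of the 25 passed the level requirement through the GFP-low library alone and so had to differ, counts that ignore level are given as well. Over all 42 genes, 34 (81.0%) were higher in GFP-low cells by any amount, against 53.5% of the genes above 0 in either library. At any level, 29 of the 42 favoured GFP-low cells by 1.5-fold or more, 3 favoured GFP-high cells by as much and 10 lay between. By the same rule, 3248 of all 21590 genes favoured GFP-low cells and 3131 favoured GFP-high cells. Among the 34 matrix genes with at least 5 FPKM in either library 73.5% were called GFP-low and 2.94% GFP-high, where the shares over the 10760 genes at that level were 8.90% and 9.48%.

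The median log2 ratio of GFP-high over GFP-low was -0.84 for the 42 genes and -0.03 for all genes, for which the quartiles were -0.33 and 0.30. The lowest value was -4.10, for *Nid2*, and the highest 0.89, for *Ltbp2*. The median ratio of the 25 genes called GFP-low was 2.11-fold, and 10 of them differed less than 2-fold. When each library was divided by its own FPKM sum, the median of all genes shifted to -0.13, and the share of all calls that fell to GFP-high went from 51.6% to 39.8%. With GFP-low values rescaled by the median ratio of genes these were 0.01 and 56.4%. In bulk RNA, fewer cells of a type and less RNA per cell cannot be told apart, and this holds for each difference below.

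**Figure D1:**
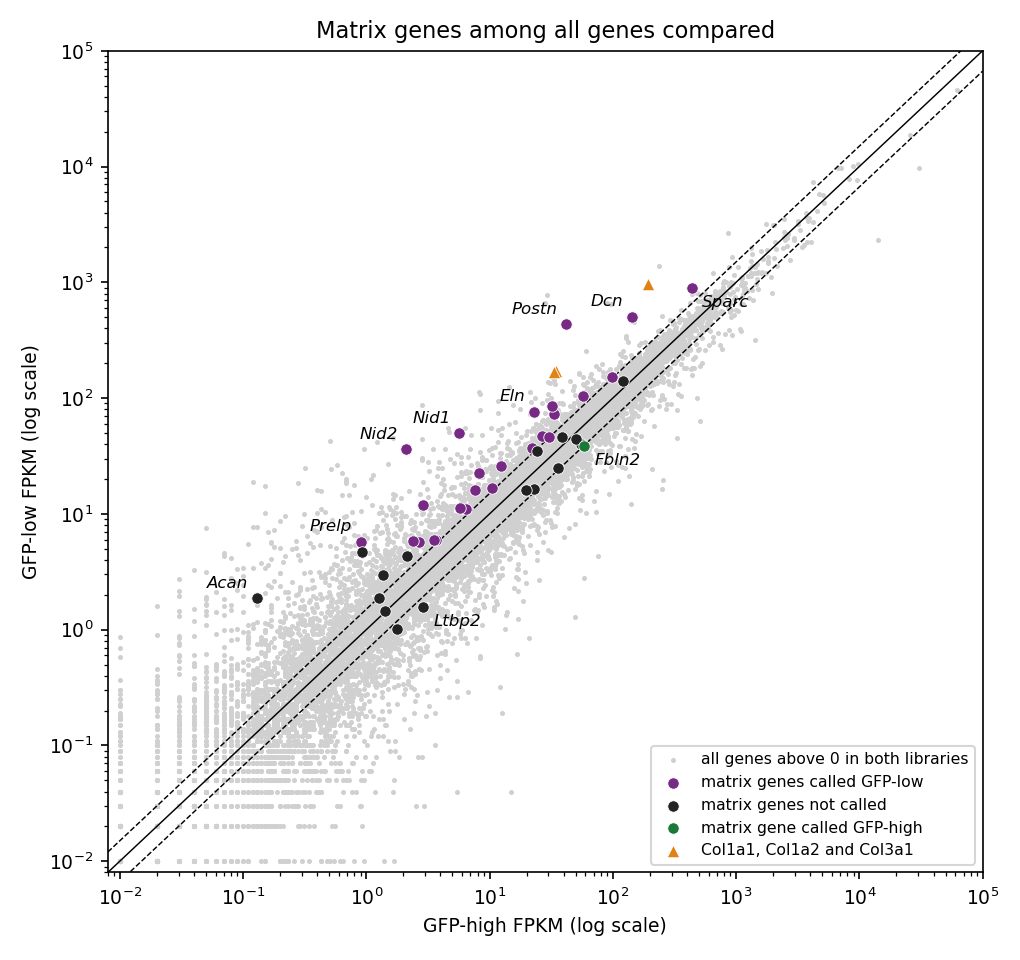
FPKM in the GFP-low library (vertical, log scale) against FPKM in the GFP-high library (horizontal, log scale) for the 15928 genes above 0 in both (grey), with the 42 matrix genes coloured by call and *Col1a1*, *Col1a2* and *Col3a1* as triangles. The solid line marks equal values and the dashed lines 1.5-fold, and most matrix genes lie above the upper dashed line, *Nid2*, *Nid1* and *Postn* farthest among those called.

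Matrix transcripts were a small part of both libraries. The 42 genes summed to 1459 FPKM in GFP-high cells, which is 0.136% of all FPKM there, and to 3110.5 FPKM in GFP-low cells, which is 0.311%. The ratio of the sums was 2.13. A few genes dominated: *Sparc*, *Dcn* and *Tnc* made up 48.2% of the sum in GFP-high cells, and *Sparc*, *Dcn* and *Postn* 59.0% in GFP-low cells. Without *Sparc*, *Dcn* and *Postn* the sums were 836 and 1274 FPKM, a ratio of 1.52. The typical gene was of middling abundance, with a median of 11.5 FPKM in GFP-high and 23.5 FPKM in GFP-low cells, where the medians over all genes were 3.65 and 4.01. The order of the 42 genes by level was much alike in the libraries (Spearman rho 0.88 across genes, which are not independent replicates and share the libraries' processing).

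**Figure D2:**
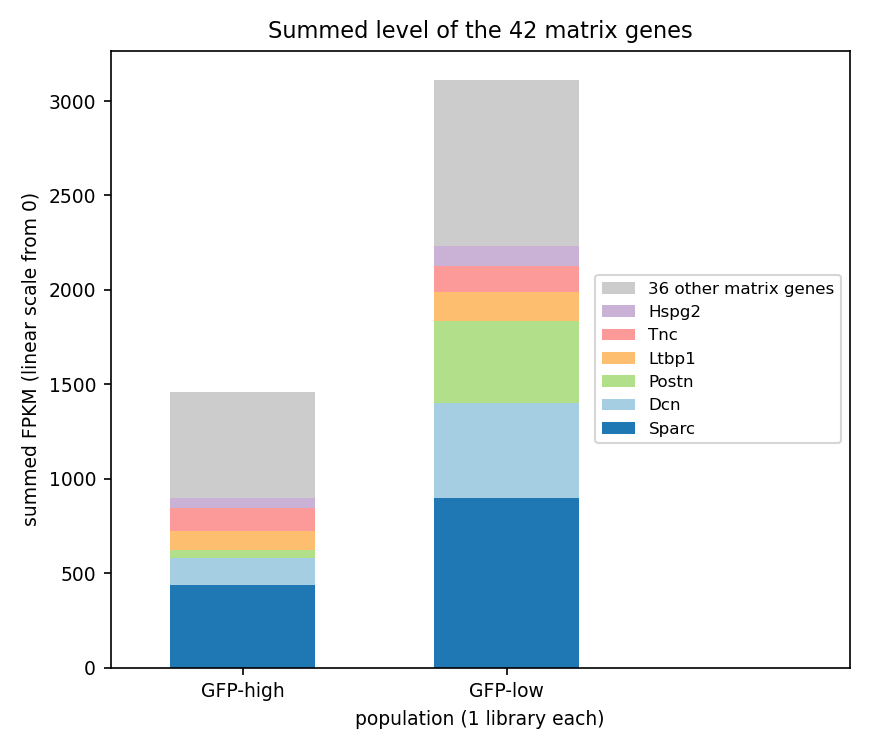
Summed FPKM of the 42 matrix genes in each library on a linear scale from 0, with 6 abundant genes coloured and the other 36 in grey. The bar is 1459 high for GFP-high and 3110.5 for GFP-low, and the segments of *Sparc*, *Dcn* and *Postn* account for most of the difference, while the grey segment is 559 and 877.

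The small leucine-rich proteoglycans are secreted proteins that coat collagen fibrils and set fibril width and spacing. Of the 7 measured, 4 were called GFP-low and none GFP-high, with a median log2 ratio of -0.70. With 5 FPKM required in both libraries, or with a minimum of 10 FPKM, 2 were called GFP-low. Decorin (*Dcn*), which also binds transforming growth factor beta (TGF-beta), had 143 FPKM in GFP-high and 504 FPKM in GFP-low cells, 3.52-fold. This placed *Dcn* at rank 228 of all genes in GFP-low and rank 1230 in GFP-high cells. Prolargin (*Prelp*), which links basement membranes to the collagen beneath them, had 0.90 FPKM in GFP-high and 5.77 FPKM in GFP-low cells, 6.41-fold. With a pseudocount of 1 the ratio of *Prelp* was 3.56-fold, and its call was lost with 5 FPKM required in both libraries. Asporin (*Aspn*), a relative of decorin with a run of aspartate residues, had 7.68 and 15.9 FPKM, 2.08-fold. Lumican (*Lum*), a regulator of collagen fibril size, had 3.70 FPKM in GFP-high and 6.0 FPKM in GFP-low cells, 1.62-fold. The 4 called genes thus covered a wide range of abundance, from near the 5 FPKM limit to that of *Dcn*.

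Biglycan (*Bgn*), the closest relative of decorin, had 38.9 FPKM in GFP-high and 46.3 FPKM in GFP-low cells, 1.19-fold, and was not called. Osteoglycin (*Ogn*), also known as mimecan, had 1.28 and 1.87 FPKM. Fibromodulin (*Fmod*), which competes with lumican for collagen, had 1.78 FPKM in GFP-high and 1.02 FPKM in GFP-low cells and was the 1 gene of this class with the higher value in GFP-high cells. Decorin and biglycan, similar in sequence and in what they bind, therefore differed between the populations by unlike amounts.

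Several of these genes sit in clusters with relatives that were barely detected. *Dcn* and *Lum* share a stretch of 203 kb on chromosome 10 with *Kera*, at 0.36 FPKM in GFP-high and 0.29 FPKM in GFP-low cells, and *Epyc*, listed at 0 in both. *Aspn* and *Ogn* lie within 120 kb on chromosome 13 together with *Ecm2*, which had 0.46 and 1.28 FPKM, and *Omd*, which was listed at 0 in GFP-high cells and had 0.32 FPKM in GFP-low cells. *Prelp* and *Fmod*, neighbours within 151 kb on chromosome 1 beside *Optc* (0.28 and 0.17 FPKM), went in opposite directions. Levels within each cluster thus differed widely, while direction was shared on chromosome 13 and not on chromosome 1. On chromosome 10 *Dcn* and *Lum* shared a direction, and *Kera*, at about 21 estimated reads in each library, was too scarce to place.

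The large proteoglycans carry long glycosaminoglycan chains. Of 3 genes, 2 were called higher in GFP-low cells, with a median log2 ratio of -1.14. Versican (*Vcan*), a hyaluronan-binding proteoglycan of loose connective tissue, had 33.2 FPKM in GFP-high and 72.9 FPKM in GFP-low cells, 2.2-fold. Perlecan (*Hspg2*), the main heparan sulfate proteoglycan of basement membranes, had 57.1 and 104.8 FPKM, 1.83-fold. Aggrecan (*Acan*), the cartilage member of the class, had 0.13 FPKM in GFP-high and 1.87 FPKM in GFP-low cells. Its ratio of 14.4 rests on about 26 estimated reads in the GFP-high library, and its level was under the 5 FPKM limit in both. Perlecan and versican were thus well above the limit in both populations, and aggrecan was scarce.

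Elastic fibres consist of a core of elastin on a scaffold of fibrillin microfibrils, assembled with the help of fibulins and latent TGF-beta binding proteins. This was the most divided class: 8 of 14 genes were called GFP-low, 1 was called GFP-high, and 5 were not called, with a median log2 ratio of -0.70. With a 2-fold limit 1 gene was called GFP-low and none GFP-high. Elastin (*Eln*) differed most among the called genes, with 23.0 FPKM in GFP-high and 76.4 FPKM in GFP-low cells, 3.33-fold. Fibrillin 2 (*Fbn2*), the fibrillin most used in fetal tissue, had 6.45 and 11.1 FPKM, 1.72-fold. Fibrillin 1 (*Fbn1*), the main fibrillin of mature microfibrils, had 24.3 and 34.8 FPKM, 1.43-fold, and was called (1.53-fold) only when each library was divided by its FPKM sum. Of the exonic bases of *Fbn1*, 20.1% lie antisense to *Gm9913*, which had 0.11 and 0.10 FPKM.

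The microfibril-associated glycoproteins were each about 1.5 to 2 times higher in GFP-low cells. *Mfap2*, whose product binds fibrillin, had 26.7 FPKM in GFP-high and 46.9 FPKM in GFP-low cells, 1.76-fold. *Mfap5*, its close relative, had 5.76 and 11.3 FPKM, 1.96-fold. *Mfap4*, a fibrinogen-domain protein of elastic fibres, had 10.6 and 16.6 FPKM, 1.57-fold. *Emilin1*, which sits at the interface of elastin and microfibrils, had 3.53 and 5.95 FPKM, 1.69-fold. These 4 differences were smaller than that of elastin itself, and those of *Mfap4* and *Emilin1* were near the limits of fold or level.

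The fibulins and their relatives split by direction. Fibulin 2 (*Fbln2*), found in basement membranes and elastic fibres, had 58.9 FPKM in GFP-high and 38.5 FPKM in GFP-low cells, and its 1.53-fold difference made it the only one of the 42 genes called GFP-high. The call was lost when each library was divided by its FPKM sum, where the ratio was 1.43. Fibulin 1 (*Fbln1*), a binding partner of fibronectin and nidogen, had 54.9 and 40.2 FPKM, 1.36-fold higher in GFP-high cells. Fibulin 3 (*Efemp1*) had 35.6 and 24.7 FPKM, 1.44-fold higher in GFP-high cells. None of these 3 reached 2-fold.

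The other fibulins had the reverse direction. Fibulin 4 (*Efemp2*), needed to bring lysyl oxidase to elastin, had 22.0 FPKM in GFP-high and 37.2 FPKM in GFP-low cells, 1.69-fold. Fibulin 5 (*Fbln5*), needed to place elastin on microfibrils, had 0.93 and 4.73 FPKM, a ratio of 5.09 that was not called because both values were under 5 FPKM. The 5 fibulins thus split 3 to 2 by direction, with 1 called each way.

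The latent TGF-beta binding proteins hold inactive TGF-beta in the matrix. *Ltbp1* was the most abundant gene of the elastic fibre class, with 98.9 FPKM in GFP-high and 151 FPKM in GFP-low cells, and its 1.53-fold difference fell just under the limit (1.49) when GFP-low values were rescaled by the median ratio of genes. *Ltbp2*, which does not bind TGF-beta but fibrillin, had 2.89 and 1.56 FPKM and so the highest log2 ratio of the 42 genes at a low level. *Ltbp1* and *Ltbp2* thus differed in opposite directions, with *Ltbp1* by far the more abundant in either library.

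**Figure D3:**
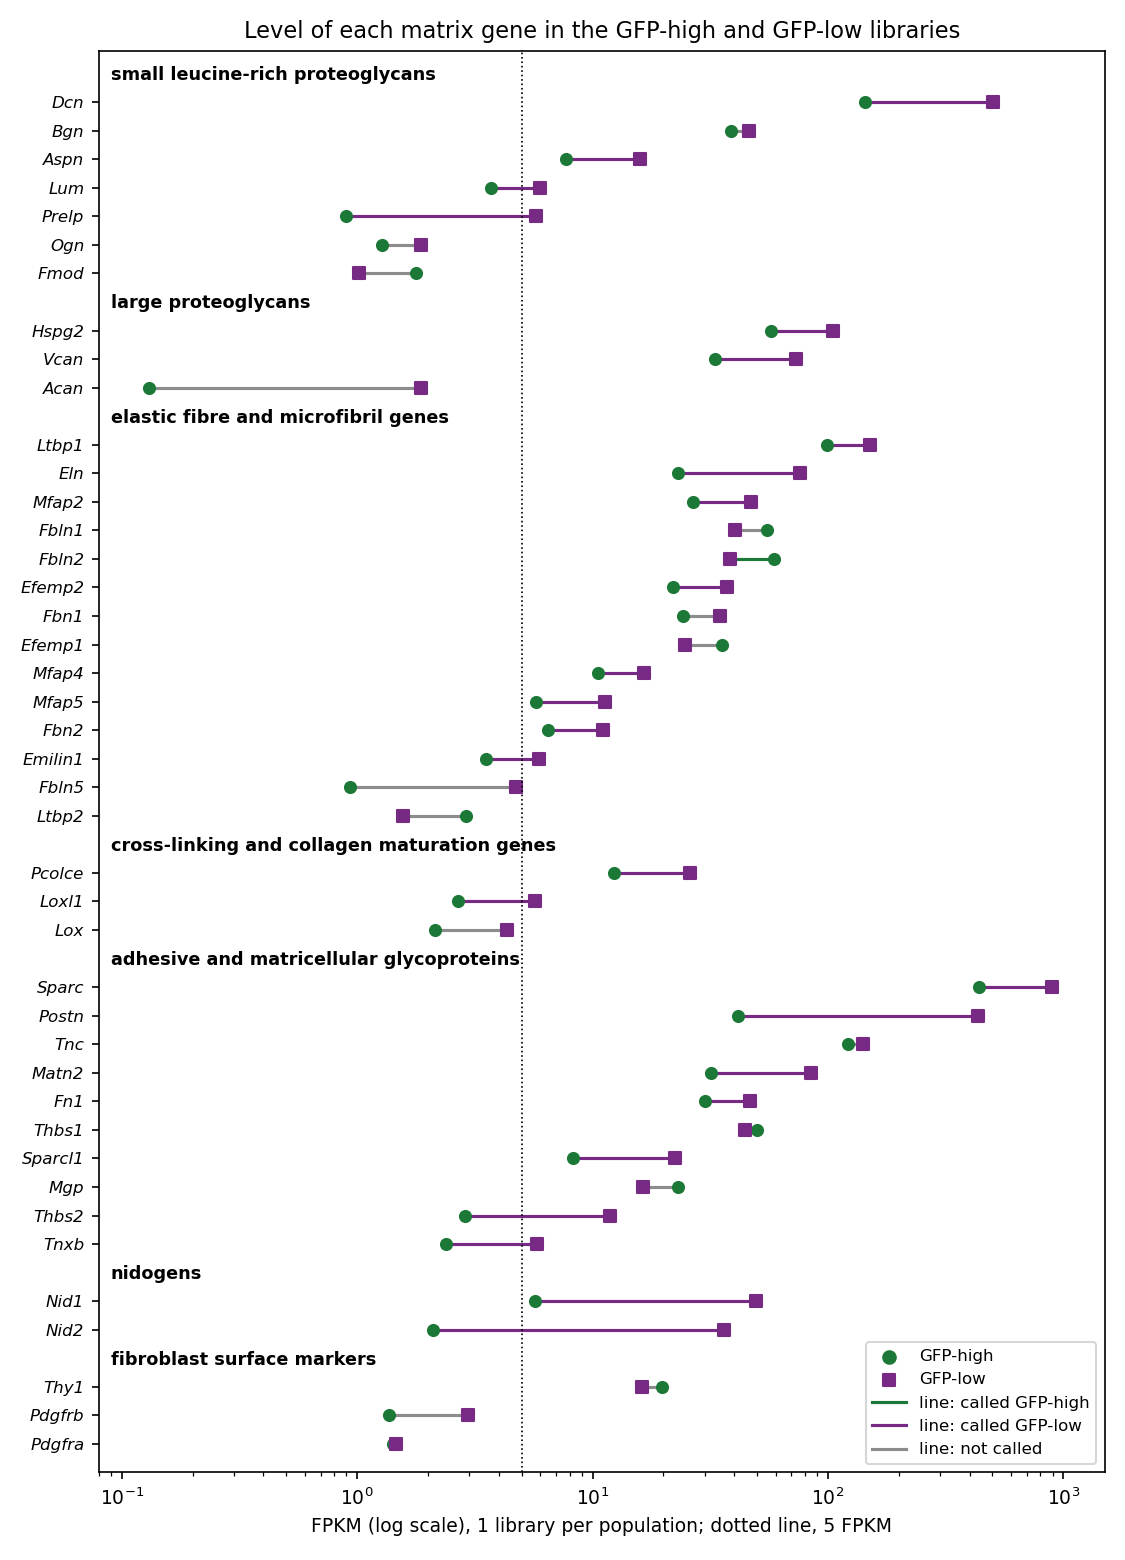
FPKM of each of the 42 matrix genes (log scale) in the GFP-high library (green circles) and the GFP-low library (purple squares), grouped by role, with the line between them coloured by call and the dotted line at 5 FPKM. The longest purple lines are those of *Nid2*, *Postn*, *Nid1* and *Prelp*, and *Fbln2* has the only green line.

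Cross-linking enzymes and a collagen maturation factor were alike in their ratios, and 2 of these 3 genes were called GFP-low. Lysyl oxidase (*Lox*), which oxidises lysines of collagen and elastin so that chains can be joined, had 2.14 FPKM in GFP-high and 4.33 FPKM in GFP-low cells, 2.02-fold, and was not called because of its level. Its relative *Loxl1*, an elastin cross-linker, had 2.68 and 5.68 FPKM, 2.12-fold. *Pcolce*, which enhances removal of the procollagen C-terminal propeptide, had 12.4 and 26.1 FPKM, 2.11-fold. The 3 log2 ratios ran from -1.08 to -1.02, the narrowest span of any class with more than 2 genes.

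Adhesive and matricellular glycoproteins held the most abundant gene, *Sparc*. Of 10, 7 were called GFP-low and none GFP-high, with a median log2 ratio of -1.16. *Sparc* (osteonectin), a calcium-binding glycoprotein that binds collagen, was the most abundant of all 42 genes in both libraries, with 438 FPKM in GFP-high and 897 FPKM in GFP-low cells, 2.05-fold. Periostin (*Postn*), which promotes collagen assembly and binds integrins, had 41.6 FPKM in GFP-high and 436 FPKM in GFP-low cells, 10.5-fold. This moved *Postn* from rank 4453 of all genes in GFP-high cells to rank 282 in GFP-low cells. Of the genes with at least 5 FPKM in either library, only 0.669% had a ratio further toward GFP-low.

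Matrilin 2 (*Matn2*), a filament-forming adaptor protein, had 31.9 FPKM in GFP-high and 85.1 FPKM in GFP-low cells, 2.67-fold. *Sparcl1* (hevin), a relative of *Sparc*, had 8.25 and 22.4 FPKM, 2.71-fold. Fibronectin (*Fn1*), the main adhesive protein recognised by integrins, had 30.2 and 46.6 FPKM, 1.54-fold. The ratio of fibronectin was therefore close to the limit of the call, and that of *Sparcl1* near that of *Matn2*.

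The thrombospondins and the tenascins among the 42 genes each held a called and an uncalled gene. Thrombospondin 2 (*Thbs2*), an inhibitor of blood vessel growth, had 2.88 FPKM in GFP-high and 11.8 FPKM in GFP-low cells, 4.11-fold. Thrombospondin 1 (*Thbs1*), its close relative with the same activity, had 49.9 and 44.3 FPKM, 1.13-fold higher in GFP-high cells, and was not called. Tenascin X (*Tnxb*), which binds collagen fibrils in loose connective tissue, had 2.38 and 5.82 FPKM, 2.45-fold. *Thbs1* and *Thbs2* thus differed from each other in level and in ratio. Tenascin C (*Tnc*), an adhesion-modulating protein of developing and healing tissue, had 121 FPKM in GFP-high and 141 FPKM in GFP-low cells, 1.16-fold. In each of these pairs the scarcer gene was the one called. Matrix Gla protein (*Mgp*), an inhibitor of calcification, had 23.0 and 16.4 FPKM, 1.40-fold higher in GFP-high cells. For *Tnxb*, 6.4% of read-length windows also occur in other genes' transcripts, foremost its partial copy *Tnxa*, the highest share among the 42 genes, so that its values are less certain.

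The nidogens, which join the laminin and collagen IV networks of basement membranes, held the largest and the third largest called difference, with that of *Postn* between them. Nidogen 2 (*Nid2*) had 2.10 FPKM in GFP-high and 36.1 FPKM in GFP-low cells, 17.2-fold, and its call was lost with 5 FPKM required in both libraries. Nidogen 1 (*Nid1*) had 5.69 and 49.7 FPKM, 8.73-fold. Their sum was 7.79 FPKM against 85.8 FPKM, and the median log2 ratio was -3.62. Perlecan, a binding partner of nidogens in the same structure, differed by 1.83-fold. Of the exonic bases of *Nid2*, 8.4% lie antisense to *Rtraf*, which had 47.9 and 55.5 FPKM. The libraries were stranded, but whether strand was used in the counting is not given in the sources used here, so that reads of the pair in the shared bases cannot be told apart.

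None of the 3 fibroblast surface markers was called, and their median log2 ratio was -0.04. *Pdgfra*, the platelet-derived growth factor receptor typical of fibroblasts, had 1.42 FPKM in GFP-high and 1.46 FPKM in GFP-low cells. *Pdgfrb*, the receptor typical of pericytes and some fibroblasts, had 1.36 and 2.96 FPKM, 2.18-fold higher in GFP-low cells at a level too low for the call. *Thy1*, a glycolipid-anchored protein also found on other cell types, had 19.6 and 16.2 FPKM, 1.21-fold higher in GFP-high cells. The platelet-derived growth factor receptors were under 5 FPKM in both populations, while secreted matrix genes such as *Dcn* and *Sparc* were far above it.

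**Figure D4:**
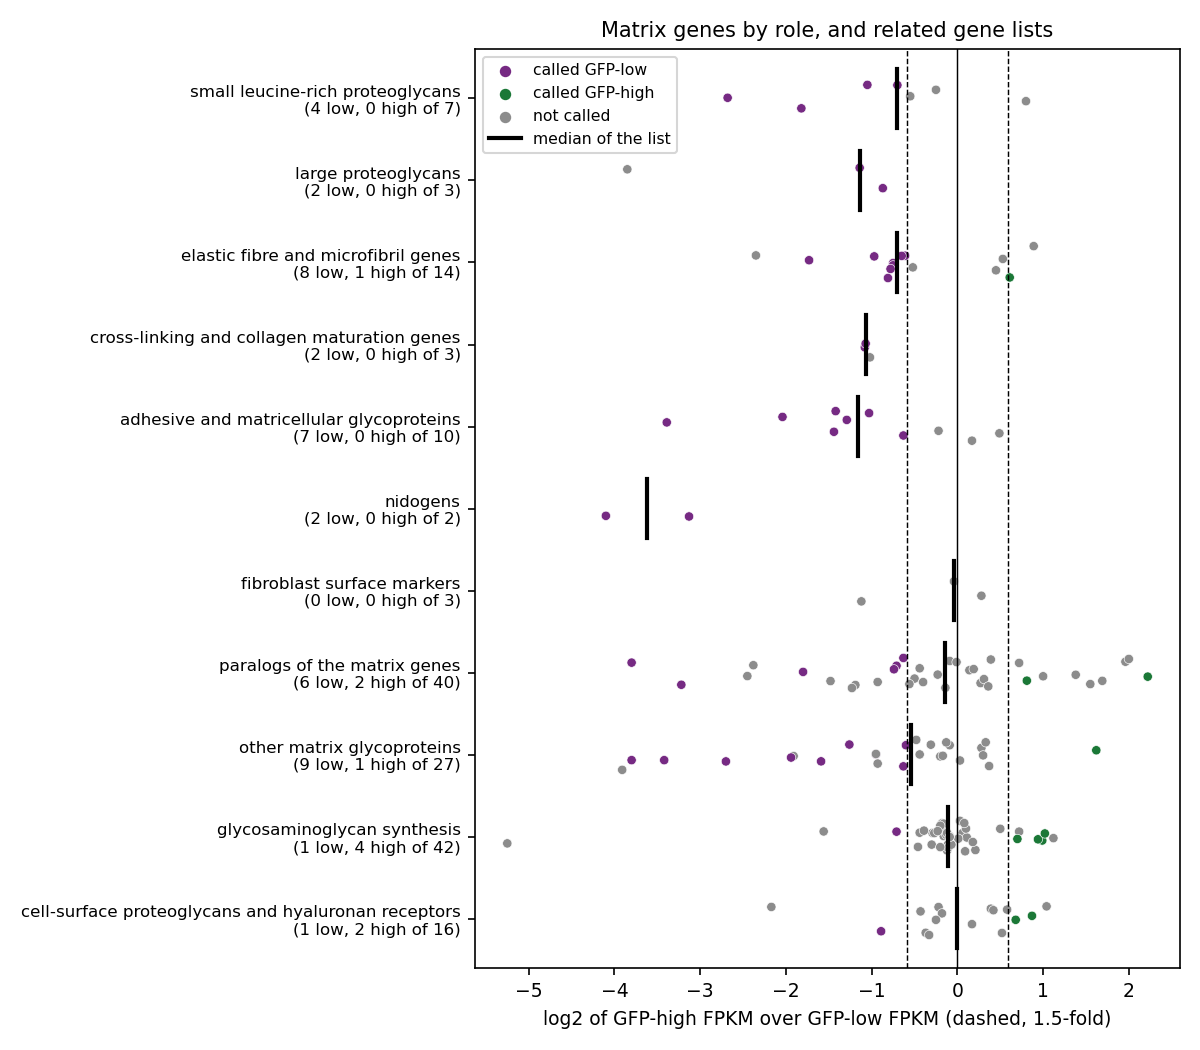
Log2 ratio of GFP-high over GFP-low FPKM for the genes of each class (points, coloured by call) with the median of each (black bar), for the 7 classes of matrix genes and 4 lists of related genes, with dashed lines at 1.5-fold. Medians lie between -0.70 and -3.62 for 6 of the classes, and those of the surface markers (-0.04), glycosaminoglycan synthesis (-0.11) and cell-surface proteoglycans (-0.00) lie near 0.

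Relatives and partners of the 42 genes put these values in context. Of 40 paralogs that could be compared, 6 were called GFP-low and 2 GFP-high, with a median log2 ratio of -0.14, or -0.04 with a pseudocount of 1. *Bcan*, *Epyc* and *Matn3* were listed at 0 in both libraries. The most abundant paralog was *Ltbp4*, which acts in elastic fibre assembly, with 483 FPKM in GFP-high and 803 FPKM in GFP-low cells, 1.66-fold. The largest called differences toward GFP-low were those of matrilin 4 (*Matn4*), with 0.69 and 9.64 FPKM, of the lysyl oxidase relative *Loxl3*, with 0.66 and 6.15 FPKM, and of hemicentin 1 (*Hmcn1*), with 3.72 and 12.9 FPKM. The calls of *Matn4*, *Loxl3* and *Hmcn1* were lost with 5 FPKM required in both libraries, which left 3 paralogs called GFP-low. Called in the other direction were *Smoc2*, a secreted calcium-binding relative of *Sparc*, with 119 FPKM in GFP-high and 25.6 FPKM in GFP-low cells, 4.65-fold, and *Mfap3l*, with 32.9 and 18.8 FPKM. *Smoc2* lies 261 kb from *Thbs2* on chromosome 17, and the 2 genes differed about 4-fold in opposite directions.

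Of 27 other matrix glycoproteins, 9 were called GFP-low and 1 GFP-high, with a median log2 ratio of -0.54. The most abundant was the matricellular gene *Cyr61*, with 636 FPKM in GFP-high and 525 FPKM in GFP-low cells. The largest called differences were those of *Spon1* (F-spondin), with 0.37 and 5.14 FPKM, *Reln* (reelin), with 1.11 and 11.9 FPKM, and *Egflam* (pikachurin), with 1.36 and 8.85 FPKM. The calls of *Spon1*, *Reln* and *Egflam* were lost with 5 FPKM required in both libraries, which left 5 genes of the list called GFP-low. With a pseudocount of 1 the median was -0.19. *Nov*, a relative of *Cyr61*, was the gene called GFP-high, with 8.11 and 2.64 FPKM, a call lost with 5 FPKM required in both libraries and with a minimum of 10 FPKM. Shares of calls toward GFP-low in this list were thus below those of the 42 genes and above those of all genes.

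The enzymes that build the sugar chains of proteoglycans had few calls toward GFP-low. Of 42 genes of glycosaminoglycan synthesis, 1 was called GFP-low and 4 GFP-high, where 4.44% and 4.72% of all genes were called, and the median log2 ratio was -0.11. The 2-fold limit left 1 call, toward GFP-high. The highest value in either library was that of the heparan sulfate 6-O-sulfotransferase *Hs6st1*, which had 209.6 FPKM in GFP-high and 109 FPKM in GFP-low cells, 1.92-fold higher in GFP-high cells. *Ust*, which sulfates uronic acid residues, had 17.3 and 8.49 FPKM, and *Hs3st1*, a 3-O-sulfotransferase, had 7.94 and 4.01 FPKM and was below the limit when 5 FPKM was required in both. *Chst3*, a chondroitin 6-O-sulfotransferase, was the gene called GFP-low, with 6.53 and 10.7 FPKM. Of 16 cell-surface proteoglycans and hyaluronan receptors, 1 was called GFP-low and 2 GFP-high, and the median was -0.00, which became -0.10 when each library was divided by its FPKM sum and 0.03 with the median-ratio scaling. Syndecan 1 (*Sdc1*), the main syndecan of epithelia, had 1029.5 FPKM in GFP-high and 565 FPKM in GFP-low cells. Glypican 6 (*Gpc6*) had 8.02 and 5.01 FPKM, a call lost when each library was divided by its FPKM sum and with a minimum of 10 FPKM, and syndecan 3 (*Sdc3*), prominent in nerve and muscle, was called GFP-low with 95.4 and 177 FPKM.

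Markers of cell types were read in the same libraries to set the matrix genes beside them. Both libraries carried the keratinocyte genes of the labelled tissue. All 7 basal keratinocyte genes were at 5 FPKM or more, with *Krt5* at 9667 FPKM in GFP-high and 10422 FPKM in GFP-low cells, a list sum of 2.41% and 3.30% of all FPKM, 1 gene called GFP-low and a median log2 ratio of -0.38. Of 8 suprabasal genes 4 were called GFP-high, with a sum of 6.82% and 3.25% of all FPKM and with *Krt13* at 30523 and 9738 FPKM. Of 7 taste bud genes 6 were called GFP-high, with *Lrmp* at 257 and 19.8 FPKM and a list sum of 459 and 101 FPKM, and 3 were called with 5 FPKM required in both libraries.

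Most fibroblast markers, like most of the matrix genes, were higher in GFP-low cells. The fibroblast markers that were called encode matrix proteins themselves, and no transcription factor of the list was called. Of 13 compared, 7 were called GFP-low and none GFP-high, with a median log2 ratio of -1.23 and a sum of 354 FPKM in GFP-high and 1527 FPKM in GFP-low cells, 4.31-fold. The most abundant was *Col3a1*, with 193 and 966 FPKM. *Col1a1* (34.4 and 172 FPKM) and *Col1a2* (33.2 and 167 FPKM), named after their values were seen, had nearly the same ratio, and the 3 collagens together were 5.0-fold higher in GFP-low cells. Only 6 of the 42 matrix genes had a larger ratio than these collagens: *Nid2*, *Acan*, *Postn*, *Nid1*, *Prelp* and *Fbln5*. Of these, *Acan*, *Prelp* and *Fbln5* were under 1 FPKM in GFP-high cells. With a pseudocount of 1 their ratios fell below 5.0-fold, while those of *Nid2*, *Postn* and *Nid1* stayed above it. All 6 fibroblast transcription factors of the list were under 5 FPKM in both populations, at most 3.86 FPKM. Of these, *Tcf21* was listed at 0 in both, and the others are named after their values were seen. *Prrx1* (0.69 and 2.11 FPKM), *Twist1* (1.05 and 2.17 FPKM), *Prrx2* (3.11 and 3.86 FPKM) and *Meox1* (0.28 and 0.33 FPKM) were higher in GFP-low cells, and *Twist2* (2.27 and 0.50 FPKM) was higher in GFP-high cells. Most of the secreted matrix genes thus shared the direction of the fibrillar collagens, as did the surface marker *Pdgfrb*, while *Pdgfra* differed by 1.03-fold and *Thy1* was higher in GFP-high cells. The part that fibroblasts in the sorted cells have in the matrix values was not tested.

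Schwann lineage, pericyte and cartilage lists also had genes called GFP-low. Schwann lineage genes had the lowest median, -4.88, with 6 of 8 called GFP-low and a sum of 89.8 FPKM in GFP-high and 318 FPKM in GFP-low cells. Of 9 pericyte and smooth muscle genes 3 were called GFP-low, with a median of -1.14, a sum of 114 and 163 FPKM, and the highest value in either library that of *Notch3*, with 57.0 and 38.1 FPKM. Of 8 cartilage genes 1 was called GFP-low, *Col11a1*, with 0.69 and 18.4 FPKM, and the list summed to 20.8 and 41.6 FPKM with a median of -0.95. With a pseudocount of 1 the medians of the Schwann lineage and cartilage lists were -3.01 and -0.18. With 5 FPKM required in both libraries, 1 Schwann lineage gene and no cartilage gene was called. The medians of these 3 lists lie toward GFP-low as that of the matrix genes does, as do those of the basal keratinocyte, leukocyte and melanocyte lists, and their part in the matrix values was not tested.

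The remaining lists had no gene called GFP-low. Of 9 endothelial genes none was called GFP-low and 1 GFP-high, with a median of 0.83, a sum of 38.6 and 27.2 FPKM, and *Egfl7* at 18.5 and 15.9 FPKM. Its median was 0.43 with a pseudocount of 1, and its 1 call was lost when each library was divided by its FPKM sum, with 5 FPKM required in both libraries and with a minimum of 10 FPKM. Of 10 skeletal muscle genes 1 was called GFP-high, *Tnnt3*, with 8.58 and 5.05 FPKM, a median of 0.23 and a sum of 24.5 and 22.2 FPKM. The call of *Tnnt3* was lost with a minimum of 10 FPKM and with the 2-fold limit. No leukocyte gene of 8 was called, with *Cd68* at 14.0 and 15.3 FPKM, a median of -0.12 and a sum of 18.1 and 20.1 FPKM. Of 6 melanocyte genes 1 was called GFP-high (none with 5 FPKM in both), *Mitf*, with 17.2 and 1.24 FPKM, while *Tyr* was listed at 0 in both, and the list summed to 18.5 and 3.91 FPKM with a median of -0.70. With a pseudocount of 1 the medians of the skeletal muscle, leukocyte and melanocyte lists were 0.11, -0.06 and -0.10.

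**Figure D5:**
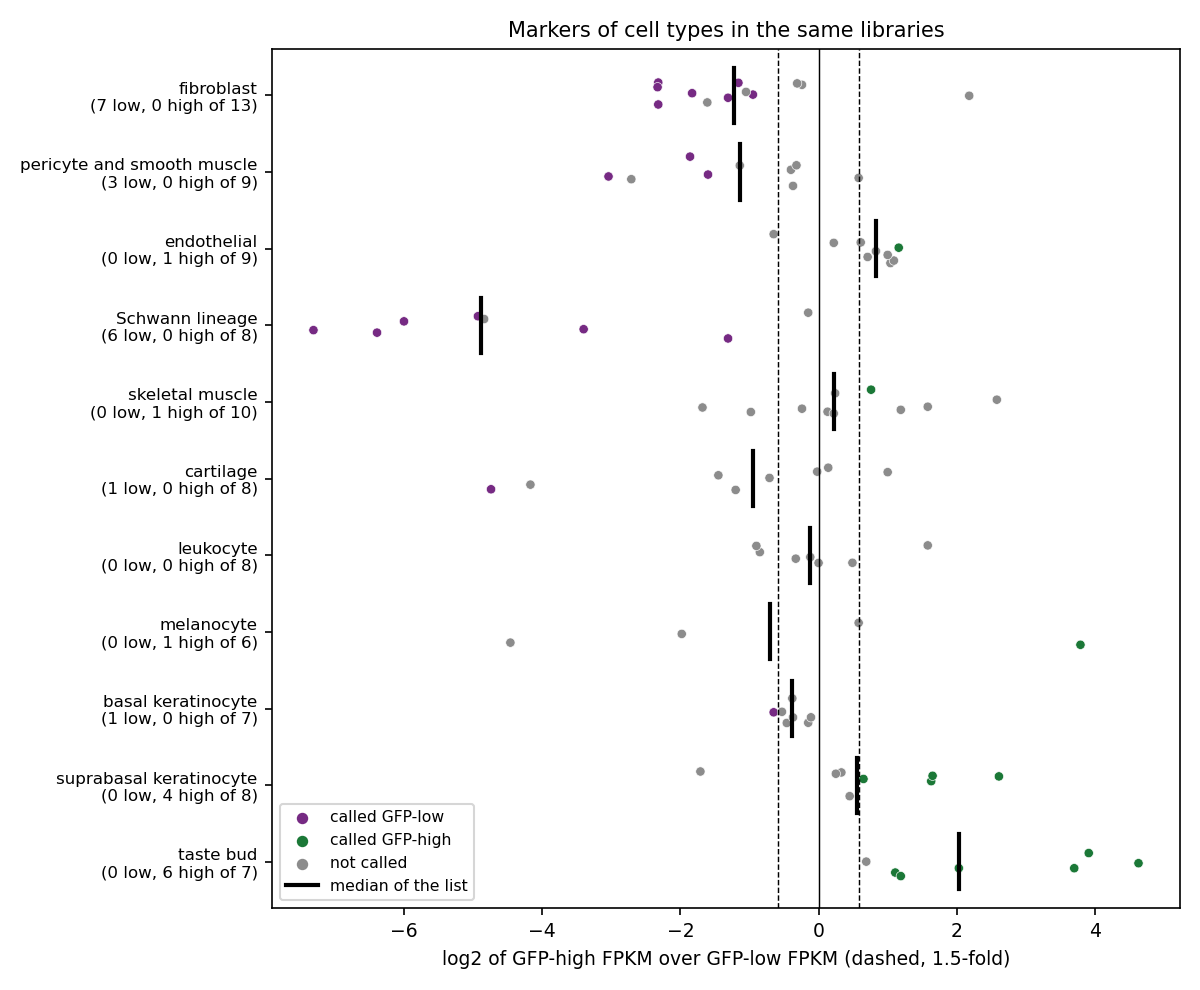
Log2 ratio of GFP-high over GFP-low FPKM for markers of 11 cell types (points, coloured by call), with the median of each list (black bar) and dashed lines at 1.5-fold. The medians of the Schwann lineage (-4.88), fibroblast (-1.23) and pericyte and smooth muscle (-1.14) lists lie toward GFP-low, and those of the taste bud (2.03), endothelial (0.83) and suprabasal (0.55) lists toward GFP-high.

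Promoter sequence was compared for the 26 of 42 genes with an entry in the RefSeq table of mouse promoters (build GRCm38.p6), using the 250 bases upstream of the start nearest to the annotated start of the gene. Each of 5 short motifs, none of which contains another, was searched on both strands. The shares over all windows count every listed start, while each of the 26 genes adds only 1 window, so the shares are built unlike. The letters GGGCGG of the GC box, bound by SP-family factors, were present in 13 of 26 windows, against 32.7% of all 32851 windows of that length, and in 5 of the 14 windows of genes called GFP-low. The letters TATAAA of the TATA box, which positions the start of transcription, were present in 5 windows (19.2%), against 12.4% of all windows. The AP-1 letters TGAGTCA were found in 1 window, that of *Tnxb*, against 4.46% of all windows. The forkhead core TGTTTAC was found in none of the 26 windows, where 3.17% of all windows hold it. The SOX core CATTGTT was likewise found in none, where 3.29% of all windows hold it. For both motifs this says only that these exact letters are not in these windows of 250 bases. The study, with its own motif search over a longer region, lists *Fbln2* among putative targets of the forkhead factors FOXA1 and FOXA2. Median GC content was 56.2% for the matrix genes and 52.4% for all windows.

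The upstream sequences of *Postn* and *Nid1*, among the 3 largest called differences toward GFP-low, are shown to set their letters side by side, 5′ to 3′ on the plus strand of GRCm38.p6, with motif letters in capitals. They are *Postn* at chr3:54360857-54361106 and *Nid1* at chr13:13437352-13437550, each ending before the annotated start of its own gene in GENCODE M21. *Nid2* is named only, and the window of *Fbln2* is not printed because all of it lies downstream of the annotated start of that gene.
Postn: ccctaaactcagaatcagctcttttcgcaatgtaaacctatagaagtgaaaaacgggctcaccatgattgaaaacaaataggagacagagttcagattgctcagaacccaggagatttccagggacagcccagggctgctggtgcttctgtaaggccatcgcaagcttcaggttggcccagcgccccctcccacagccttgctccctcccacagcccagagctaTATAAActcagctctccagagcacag
Nid1: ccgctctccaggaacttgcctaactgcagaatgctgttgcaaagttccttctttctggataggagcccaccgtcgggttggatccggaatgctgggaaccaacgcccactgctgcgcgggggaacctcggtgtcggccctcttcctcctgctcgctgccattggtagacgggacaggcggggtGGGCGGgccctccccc
The *Postn* window has TATAAA beginning 26 bases before the RefSeq start and no GC box. The *Nid1* window has a GC box beginning 67 bases before the RefSeq start and no TATA letters. The *Fbln2* window also has a GC box, on the minus strand, beginning 16 bases before its RefSeq start. GC content over the 250 bases was 52.0% for *Postn*, 64.4% for *Nid1* and 58.8% for *Fbln2*. *Postn* and *Nid1*, both called GFP-low, thus hold different motif letters, and *Nid1* and *Fbln2*, called in opposite directions, hold the same ones.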

How the data were processed

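RNA was measured in 1 library of GFP-high and 1 of GFP-low cells, from stranded mRNA libraries read as single ends of 50 nt. The authors trimmed reads with Trimmomatic 0.36, mapped them to mm10 with GSNAP and obtained FPKM with Cufflinks 2.2.1, and the deposited FPKM columns, named as means, were read as the values of 1 library each. The deposited fold column, a signed ratio of those columns, was not used.

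Gene types, positions and exons came from GENCODE M21. Of 21628 entries, 21 that were not protein-coding and 17 without a number in a library were left out, leaving 21590. The fold is the ratio of FPKM with no pseudocount, and genes at 0 in a library have none. The call uses the study's limits of 5 FPKM and 1.5-fold. The study's methods ask for that level in each sample and its results for a threshold of 5 FPKM, and here it was required in the population where the gene is higher, with both libraries as an alternative. All 42 genes are named. Of related lists, the gene with the highest value in either library and up to 3 with the largest called fold in each direction are named, and of cell type lists the gene with the highest value and those at 0 in both. A gene that this rule names is not reported here. The genes and lists were chosen with earlier results of these data known.

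Depth was estimated from the steps of low FPKM values, of which 62.9% and 62.3% lay within 0.15 of whole reads, so that read numbers are approximate. The calls were checked on simulated data. Python 3.11.15, pandas 2.3.3 and NumPy 2.4.6 were used. Alternatives changed the FPKM minimum, the fold, the scaling, the pseudocount and the entries kept.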

Additional observations from a re-analysis of the deposited data

How the results depend on the processing

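No paired analysis was possible because each population has 1 library. The number of matrix genes called GFP-low was 25 and ran from 18 to 29 over the other FPKM minimums, the scalings, the pseudocounts and the inclusion of all entries, and was 15 with a 2-fold limit. The number called GFP-high was 1, rose to 3 with a minimum of 1 FPKM or none, and was 0 with the 2-fold limit and when each library was divided by its FPKM sum. A higher limit or minimum leaves fewer genes that can pass. The median log2 ratio lay between -0.94 and -0.76 throughout. Of the 25, 23 were called GFP-low under both scalings and both pseudocounts, the exceptions being *Lum* and *Ltbp1*.

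With 5 FPKM required in both libraries, 7 calls were lost (*Lum*, *Prelp*, *Emilin1*, *Loxl1*, *Tnxb*, *Thbs2* and *Nid2*). Over all genes this rule called 633 GFP-low and 777 GFP-high, against 958 and 1020. No minimum gave 3248 and 3131, a minimum of 1 FPKM 1563 and 1540, and the 2-fold limit 467 and 448. With 5 FPKM in both, calls toward GFP-low went from 6 to 3 for paralogs, from 9 to 5 for other matrix glycoproteins and from 4 to 2 for small leucine-rich proteoglycans. With a pseudocount of 1 the medians were -0.88 for fibroblast, -0.83 for pericyte and smooth muscle and 1.47 for taste bud genes, -3.25 for nidogens, -0.86 for cross-linking genes, -1.02 for adhesive glycoproteins and -0.57 for small leucine-rich proteoglycans. The counting error of a single library is not a measure of variation between animals.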
